A study of Xenopus tropicalis with 36 samples.

Results

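Brachyury is a T-box transcription factor that activates mesoderm genes in the tailbud and the notochord, and vertebrate embryos that lack it fail to make a notochord and a tail. Xenopus tropicalis carries a tandem pair of Brachyury genes, t and t2. Mice with a single working copy of T grow short tails, so the dose of this gene matters in that species. The comparison described here asked what a single mutant copy of each frog paralog changes in the transcriptome of the tailbud embryo. It compared 12 of the 36 libraries of the series, which were the 6 t/t2 het and the 6 wild-type libraries of the KO experiment. The fits also held the 6 KO libraries of that experiment. Uninjected embryos and embryos injected with control or t/t2 antisense oligonucleotides served only for the count filter and for lists of genes. Every gene of the count table was considered, and 17983 genes passed a filter on the mean normalized count.

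The het embryos carried a deletion made with TALENs, engineered nucleases that cut a chosen site, in the first exon of t (allele e1.2D) and another in the third exon of t2 (allele e3.7D), each over a wild-type copy, and the wild-type siblings carried neither. Both came from crosses 1, 2 and 9 between out-bred double heterozygotes of the Nigerian strain, which also gave KO siblings with both copies of both genes mutated. Each library was a pool of 5 to 10 whole embryos of a shared genotype, raised at 25 °C to stage 26 or 34, so that 3 crosses at 2 stages gave 6 pairs of het and wild-type pools. No embryo of the KO experiment was injected. The counts summed reads of both alleles and did not tell the mutant from the wild-type transcript. In whole-embryo RNA, fewer cells of a type and less RNA per cell cannot be told apart.

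Depth was similar in the groups. Fragments (read pairs) assigned to genes numbered 34938844 to 40342337 in het and 30225504 to 52401214 in wild-type libraries, and ribosomal RNA took 0.142% of the fragments at most. Whole-embryo tissues were represented in every pool, as blood hemoglobin gene hba1 ranged from 88.7 to 477 normalized counts in het and 96.5 to 256 in wild-type, and cardiac myosin gene myh6 from 554 to 5684 and 1092 to 6291. Levels are given as normalized counts, which are counts scaled to a common library size, in the order cross 1, cross 2, cross 9. A gene was called changed when edgeR's quasi-likelihood test gave a Benjamini-Hochberg adjusted p of 0.1 or less over all genes and the fold change was at least 1.5. The pools of a pair shared parents, so adjusted p-values from fits with the cross, or with each cross-by-stage pair, as a block stand beside those of the unblocked fit where they change the call.

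t itself was higher in het embryos. The gene (Xetro.E00956, scaffold 5, 72053579 to 72062232, plus strand of annotation v7.1, 8 exons) had normalized counts of 766, 889 and 649 in wild-type and 1253, 1162 and 1134 in het pools at stage 26. At stage 34 the wild-type pools held 388, 421 and 425 and the het pools 593, 718 and 673. The groups did not overlap at either stage, and het was above wild-type in 6 of 6 pairs, which was so in that direction for 0.106% and 2.05% of 17983 genes. The log2 fold change over both stages was 0.65 ± 0.14 (SE), a 1.57-fold difference with a 95% interval of 1.30 to 1.91. The adjusted p was 0.24 without a block, 0.039 with cross as a block and 0.0021 with pair as a block, all from edgeR's quasi-likelihood test, so the unblocked fit did not call t. DESeq2 and a fit of the 12 libraries alone did call it. KO siblings held 81 to 147 at stage 26 and 37.5 to 51.6 at stage 34, below every wild-type and het pool.

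t2 did not show the same difference. The gene (Xetro.E00957, scaffold 5, 72091808 to 72101743, plus strand, 8 exons) begins 29575 bases beyond the end of t. Wild-type pools had normalized counts of 827, 1000.4 and 905 at stage 26 and 674, 654 and 842 at stage 34, and het pools had 789.7, 795 and 860.0 and 774, 525 and 685. The groups overlapped at both stages and het was lower in 5 of 6 pairs. The log2 fold change was -0.15 ± 0.13 (SE), and the 95% interval of the fold change ran from 0.751 to 1.09 (adjusted p 1 by edgeR, 0.98 with pair as a block). KO siblings held 0 to 4.08 normalized counts of t2, below every other pool, so KO pools stood apart in both genes. These counts do not read the deletions themselves. At the earlier neurula stage, the paper's qRT-PCR found no decay of the mutant transcripts in hetero- and homozygotes. It found raised t there, and the paper gives t2 as reduced on complete loss of Brachyury. The het label cannot be checked from these counts.

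**Figure D1:**
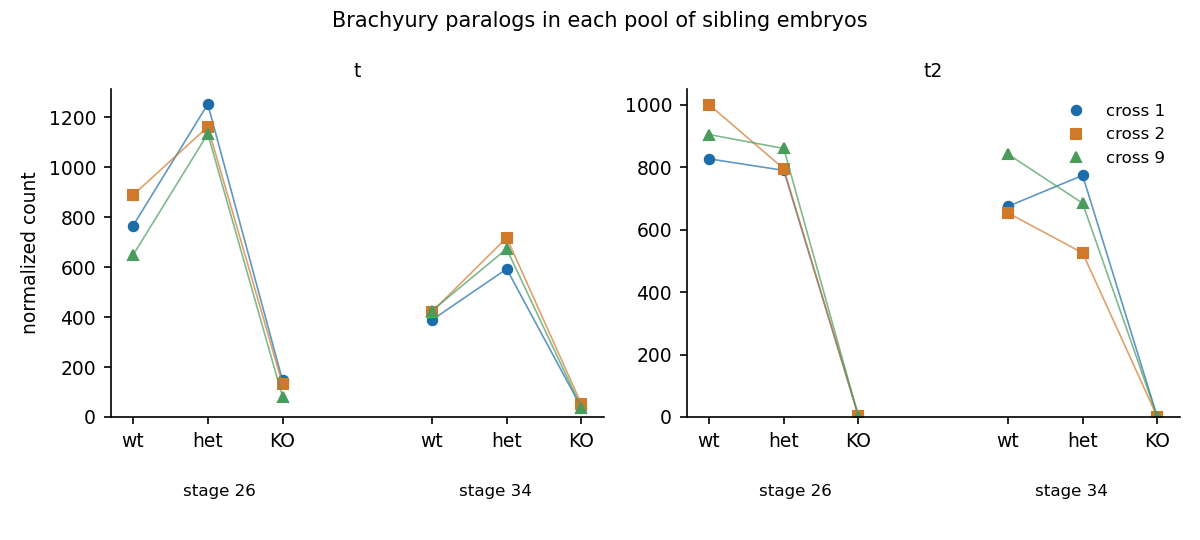
Normalized counts of t (left) and t2 (right) in every wild-type, het and KO pool of the KO experiment at stages 26 and 34, with lines joining siblings of a cross. The 6 het pools hold 593 to 1253 normalized counts of t against 388 to 889 in wild-type, without overlap within a stage, and 525 to 860.0 of t2 against 654 to 1000.4.

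Few genes set het apart from wild-type siblings. Over both stages, 4 of 17983 genes were called (0.0222%). Those raised were Xetro.K03831, nt5dc1 and Xetro.K02018, and the gene lowered was ca13 (0.0167% and 0.00556% of genes). With cross as a block 8 genes were called (0.0445%), which added t, Xetro.E00696 and Xetro.K04745 as raised and dpt as lowered. With pair as a block the count was 12 (0.0667%), with Xetro.K05172 and Xetro.K02014 further raised and krt18l and epyc further lowered, making 8 raised (0.0445%) and 4 lowered (0.0222%). Of these, Xetro.K05172 and Xetro.K02014 were chosen for description after their values were seen. At an unadjusted p under 0.05, 143 genes were higher and 160 lower in the unblocked fit (1.68% of those tested). With pair as a block 5.38% reached that level, where a share of about 0.05 is met if no gene differs. The unblocked fit keeps differences between crosses in its spread. The KO against the same wild-type pools gave 618 called genes, or 3.44%.

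Taken by stage, 3 genes were called at stage 26 (0.0167%; Xetro.K03831, nt5dc1 and ca13) and 3 at stage 34 (0.0167%; Xetro.K03831, Xetro.K04745 and Xetro.K03696). The difference between the stages was itself called for 0 genes by edgeR and for 0 by DESeq2, and 141 genes had an unadjusted p under 0.05 for it in edgeR (0.784%). With cross as a block 4 genes were called at stage 26, with Xetro.E00696 added, and 5 at stage 34, with Xetro.K05172 and Xetro.K05183 added (the last was named after its values were seen).

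Among the raised genes, nt5dc1 codes for a protein with a nucleotidase domain. It lies on scaffold 5, 52621606 to 52639714, plus strand (Xetro.E00698), 19.4 Mb from t. At stage 26 wild-type pools had 80.2, 119 and 73.7 normalized counts and het pools 240.0, 365 and 231, and at stage 34 they had 278, 254 and 172 and 372, 477 and 385. No het pool reached down into the wild-type range at either stage. The log2 fold change was 1.17 ± 0.20 (SE, adjusted p 0.045 by edgeR, 2.4e-06 with pair as a block). By stage it was 1.60 ± 0.27 at stage 26 and 0.82 ± 0.25 at stage 34, and the difference between stages did not pass (adjusted p 1). KO pools had 271 to 484 at stage 26 and 394 to 668 at stage 34. In the unblocked fit the call was lost without cross 1 or cross 9, and in 6 of 12 fits that left out a single library.

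A neighbouring gene model, Xetro.E00696 (scaffold 5, 52465085 to 52480697, plus strand), carries the same description as nt5dc1 and ends 140.9 kb before it. Its wild-type pools had 15.2, 25.7 and 16.1 normalized counts at stage 26 and 54.9, 56.2 and 40.1 at stage 34, against 52.8, 74.3 and 45.8 and 72, 104 and 71.2 in het pools. It was thus the lower of the pair in every pool and showed the same separation by genotype, with a log2 fold change of 1.09 ± 0.24 (SE, adjusted p 0.39 by edgeR, 0.017 with cross as a block). Only fragments that aligned to a single gene were counted, so how reads of near-identical copies were split between the models is uncertain.

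Sorting nexins are membrane proteins of the endosome that help recycle cargo. Xetro.K02018 (scaffold 200, 180043 to 205316, plus strand), described as sorting nexin 5, had 66.1, 66.7 and 115 normalized counts in wild-type and 130.5, 140.2 and 148 in het pools at stage 26, and 102, 79.9 and 114 and 193, 229.7 and 171 at stage 34. The groups did not overlap at either stage, and the log2 fold change was 0.89 ± 0.16 (SE, adjusted p 0.079 by edgeR). A second model with that description on the same scaffold, Xetro.K02014 (scaffold 200, 64117 to 80176, plus strand), had 19.5, 26.7 and 48.2 against 82.7, 93.1 and 87.7 at stage 26 and 88.6, 45 and 53.2 against 109, 155 and 53.2 at stage 34, where the groups overlapped. Its log2 fold change was 1.10 ± 0.24 (SE, adjusted p 0.40 by edgeR, 0.26 with cross and 0.014 with pair as a block). With counts of the large scaffolds also centred (described further on), the pair-block value was 0.21, which ended its call. Scaffold 200 was not itself centred, and the pair-block log2 fold change of Xetro.K02014 was 1.07 with and without centring. Both models overlap another on the opposite strand, and these libraries did not keep strand. The call of Xetro.K02018 was lost without cross 1 or cross 2, and in 10 of 12 fits that left out a single library.

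The largest difference among the called genes was at Xetro.K03831 (scaffold 1687, 6370 to 9874, minus strand, 2 exons), a short model described as an absent in melanoma 1 protein. Wild-type pools held 0, 10.5 and 1.34 normalized counts at stage 26 and 0, 1.12 and 0 at stage 34. Het pools held 54.8, 31.4 and 59.8 and 40, 49.4 and 19.9, and KO pools 83.6, 86.6 and 84.2 and 56.2, 39.7 and 51.7. Het stood above wild-type in 6 of 6 pairs, by the least in cross 2 at stage 26, where the wild-type pool also held reads. The fitted log2 fold change of 4.26 ± 0.50 (SE, adjusted p 1.3e-04 by edgeR) rests on few wild-type reads, and its 95% interval ran from 9.98-fold to 41.2-fold. Of the 4 genes, it alone was called in all 3 fits that left out a cross and all 12 that left out a library.

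Among the genes described here, 3 models are annotated as cytochrome P450 enzymes, a large family of monooxygenases with many near copies, and each was called in at least 1 fit, while the family as a whole was not tested. Xetro.K04745 (scaffold 7597, 401 to 2335, plus strand) had 8.44, 15.7 and 4.83 normalized counts in wild-type and 44, 96.8 and 38 in het pools at stage 34, a log2 fold change of 2.67 ± 0.47 (SE, adjusted p 0.071 by edgeR). At stage 26 it had 23.8, 50.5 and 34.8 and 63.7, 67 and 56.8 (log2 fold change 0.77 ± 0.41), and the difference between stages did not pass (adjusted p 1). Over both stages its adjusted p was 0.40 without a block, 0.039 with cross and 0.0047 with pair as a block, and 0.13 with pair as a block and counts centred per scaffold, which ended its call. Scaffold 7597 was not itself centred, and the pair-block log2 fold change was 1.55 without and 1.54 with centring of the large scaffolds. Xetro.K03696 (scaffold 1376, 2942 to 10419, plus strand) had 4.22, 10.1 and 5.53 and 31, 33 and 24.7 at stage 34, with a log2 fold change of 2.17 ± 0.39 (adjusted p 0.071). At stage 26 it had 41.2, 49.5 and 48.2 and 79.7, 60.7 and 65.8 (log2 fold change 0.57 ± 0.30). Over both stages edgeR did not call it (adjusted p 0.92 without a block, 0.54 with cross and 0.19 with pair as a block), while DESeq2 did. The groups of both models did not overlap at either stage. Xetro.K05172 (scaffold 5b, 3197766 to 3207196, plus strand) ranged from 122 to 356 in wild-type and from 227 to 487 in het pools over both stages, and its log2 fold change was 0.72 ± 0.18 (adjusted p 1 without and 0.0061 with pair as a block). Reads of such copies may be split between models, so the value of each is uncertain.

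Among the genes that were lower, ca13 is a carbonic anhydrase, an enzyme that interconverts carbon dioxide and bicarbonate. The gene (Xetro.F00330, scaffold 6, 24585404 to 24597498, minus strand) had 78, 86.7 and 48.2 normalized counts in wild-type and 14.9, 17.8 and 19.9 in het pools at stage 26, and 59.1, 74.2 and 87.7 and 45, 24.7 and 41.8 at stage 34. No het pool reached the lowest wild-type pool of its stage. The log2 fold change was -1.50 ± 0.28 (SE, adjusted p 0.079 by edgeR, 0.0021 with pair as a block), or 2.82-fold lower. The KO pools held 1.02 to 10.9 over both stages, so that het lay between wild-type and KO in 6 of 6 pools. Since ca13 was chosen as lower in het and KO held few reads, this order is no further support. A model on the opposite strand overlaps ca13. The call was lost in each fit that left out a cross and in 9 of 12 that left out a library, with log2 fold changes of -1.64 to -1.27 without a cross. Of the 11 carbonic anhydrase genes past the filter, 1 was called (ca13), and their median log2 fold change was -0.05.

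The other genes called lowered with a block were dpt, epyc and krt18l. dpt (Xetro.A01324, scaffold 1, 75461027 to 75487361, minus strand) codes for dermatopontin, a matrix protein. Wild-type pools had 259, 232 and 129 normalized counts at stage 26 and 72.8, 65.2 and 79.4 at stage 34, and het pools 64.7, 98.3 and 89.7 and 50, 22.7 and 45.6. The groups did not overlap at either stage, and the log2 fold change was -1.10 ± 0.23 (SE, adjusted p 0.24 by edgeR, 0.045 with cross as a block).

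epyc (Xetro.C01634, scaffold 3, 84225937 to 84263404, minus strand) codes for epiphycan, a small proteoglycan of cartilage matrix. It had 859, 1539 and 949 normalized counts in wild-type and 238, 849 and 669 in het pools at stage 26, without overlap, and 1589, 2344 and 1884 and 1347, 1675 and 1255 at stage 34, with overlap. krt18l (Xetro.K01247, scaffold 87, 55310 to 65733, plus strand), a gene for a keratin of the intermediate filaments, had 742, 1041 and 549 and 249.9, 660.1 and 358 at stage 26, with overlap, and 2319, 1904 and 2194 and 1745, 1115 and 1332 at stage 34, without overlap. Both were lower in het in 6 of 6 pairs, which was a condition of the rule that chose them and so is no further support. Their log2 fold changes were -0.70 ± 0.23 and -0.74 ± 0.19 (SE, adjusted p 1 for both by edgeR, and 0.0071 for epyc and 4.2e-04 for krt18l with pair as a block). With counts also centred per scaffold, the pair-block value was 0.24 for epyc, which ended its call, and 0.012 for krt18l. Scaffold 87 of krt18l was not itself centred, since only the large scaffolds were.

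Other named genes were lower in 6 of 6 pairs but were called in none of these fits over both stages. They were chosen for a small p and the same sign in 6 of 6 pairs, so that agreement is no further support. gas2, which codes for a protein of the actin cytoskeleton, had a log2 fold change of -0.57 ± 0.19 (SE). slc24a4, which codes for a sodium, potassium and calcium exchanger, had -0.66 ± 0.24, c3orf49 had -0.80 ± 0.25 and cyct, a gene for the electron carrier cytochrome c, had -0.31 ± 0.09. nme2, a gene for a nucleoside diphosphate kinase, had -0.26 ± 0.10. For c3orf49, cyct and nme2 the groups did not overlap at either stage, which was so in that direction for 0.122% of all genes. Genes chosen for a small p would show this more often than others. Side by side, the KO pools differed from the same wild-type pools by log2 fold changes of -4.20 for ca13, -4.95 for dpt, -3.29 for epyc and -7.25 for krt18l. The KO values were -2.33 for gas2, -7.36 for c3orf49 and -0.73 for cyct. Of the genes that were higher in het, the KO differed by 1.54 for nt5dc1 and 1.28 for Xetro.K02018, but by -2.94 for t. For Xetro.K03831, Xetro.E00696, Xetro.K02014 and Xetro.K03696 the KO values were 4.88, 1.55, 1.52 and 1.31, against 4.26, 1.09, 1.10 and 1.14 in het. Xetro.K04745 and Xetro.K05172 differed by less in KO than in het (1.40 against 1.58 and 0.44 against 0.72). Xetro.K05172 was not called in KO (adjusted p 0.30 by edgeR). The het and KO comparisons share their wild-type libraries, so they are not independent of each other.

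Other genes with the smallest p among those raised differed by less than 1.5-fold. traf4, which codes for an adaptor of the tumour necrosis factor receptor family, had 3056, 3459 and 3558 normalized counts in wild-type and 4065, 3951 and 4244 in het pools at stage 26, and 2783, 3083 and 3012 and 3855, 3271 and 3234 at stage 34. Its groups did not overlap at either stage, with a log2 fold change of 0.25 ± 0.08 (SE, adjusted p 1 by edgeR). olfm3, a gene for a secreted olfactomedin-domain protein, also separated at both stages, with 0.40 ± 0.16. eps8l3 had 0.54 ± 0.20, zc3h12c 0.29 ± 0.10, dopey2 0.26 ± 0.10 and the small GTPase gene rab30 0.24 ± 0.09, each with overlap at a stage. Each was higher in 6 of 6 pairs, which the rule that chose these genes required. traf4, zc3h12c, dopey2 and rab30 all lie on scaffold 2, whose genes as a whole were higher in het in 5 of 6 pairs.

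**Figure D2:**
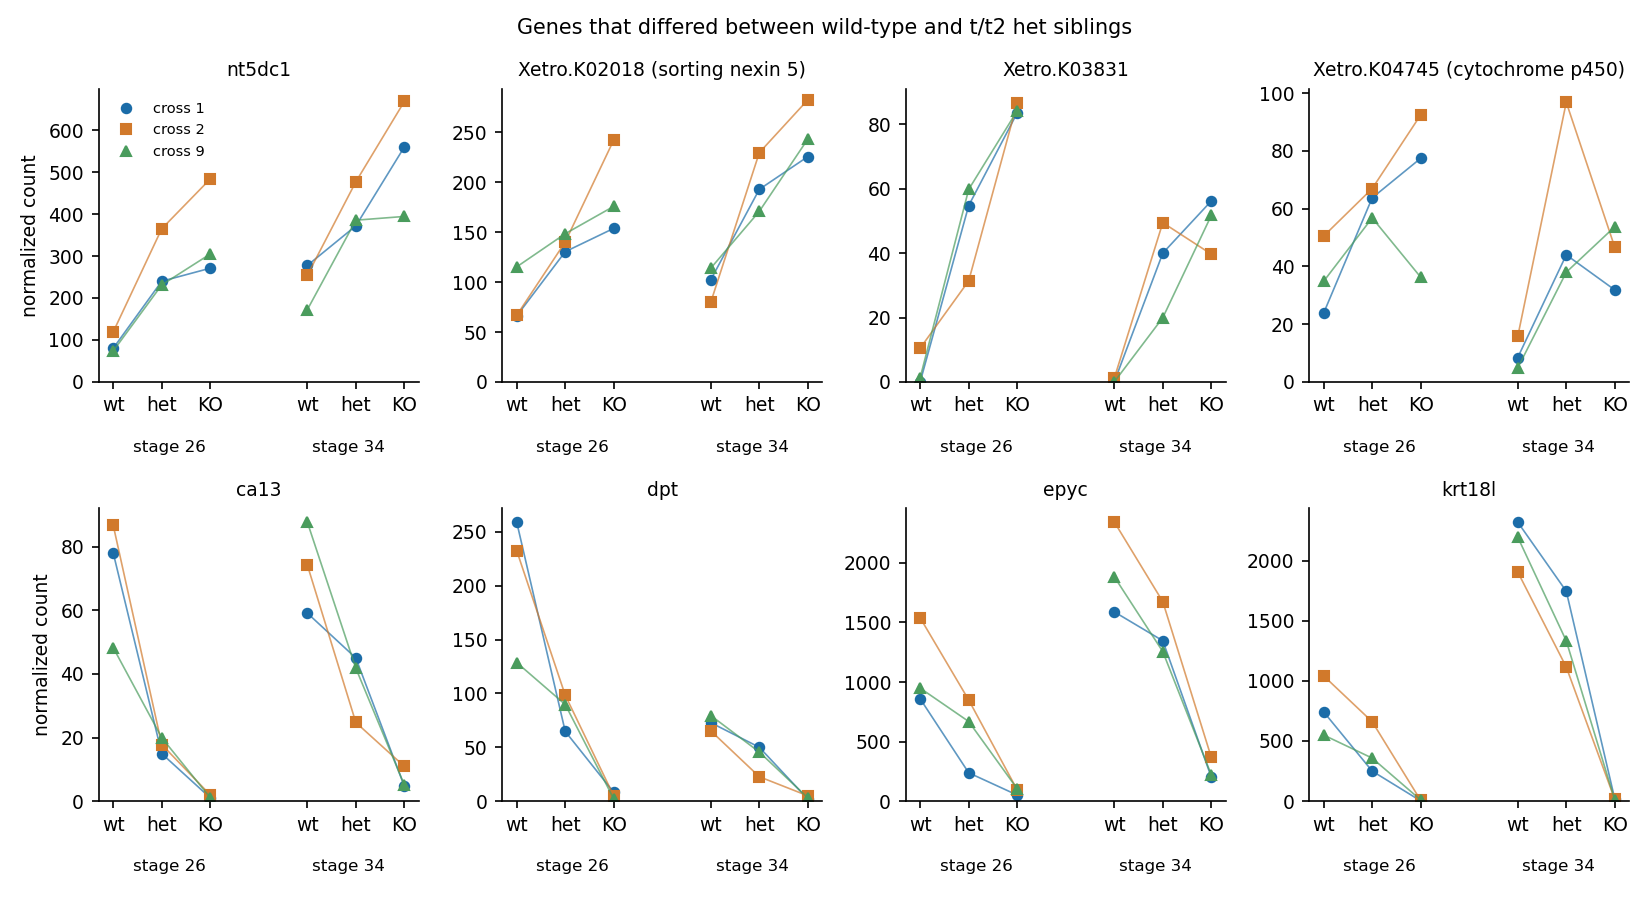
Normalized counts of 8 genes in every wild-type, het and KO pool at stages 26 and 34, with lines joining siblings of a cross. The upper genes are higher in het than in wild-type in 6 of 6 pairs and the lower genes are lower in 6 of 6 pairs. For epyc and krt18l this was a condition of their choice. KO pools of ca13 hold 1.02 to 10.9 and of krt18l 2.04 to 16.9.

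Separation of the groups was rare over all genes. Het pools lay wholly above wild-type at both stages for 19 of 17983 genes (0.106%) and wholly below for 22 (0.122%). At stage 26 alone they lay wholly above for 2.6% of genes and wholly below for 2.3%, and at stage 34 for 1.41% and 2.83%. The share lower in 6 of 6 pairs was 1.77%. Of the 12 genes called with pair as a block, t, nt5dc1, Xetro.E00696, Xetro.K02018, Xetro.K03831, Xetro.K04745, ca13 and dpt were among them. The 95% interval of the fold change lay within 1.5-fold for 13829 of 17983 genes (76.9%), and for 6521 of the 6619 genes with a mean normalized count of 1000 or more (98.5%). For the rest, the called genes among them, the interval reached beyond 1.5-fold. With pair as a block the interval lay within 1.5-fold for 15033 of 17983 genes (83.6%).

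Skeletal muscle forms from the somites, whose precursors need Brachyury. Of 30 skeletal muscle genes past the filter, 0 were called by edgeR without or with a block and 0 by DESeq2. The share called of all genes was 0.0222% without a block and 0.0667% with pair as a block, so 0 calls in a list this short say little. Of the 30 genes, 26 had a log2 fold change below 0. Their median was -0.17, against -0.005 over all genes. The list median was below 0 in each of the 6 pairs, from -0.24 to -0.11. At an unadjusted p under 0.05, 5 were lower and 0 higher, against 0.89% and 0.795% of all genes. With pair as a block the counts were 12 lower and 1 higher, against 2.63% and 2.75% of all genes. The higher gene was acta1, named after its values were seen. Its log2 fold change of 0.61 ± 0.35 (SE, without a block) was the largest of the list in size, and het was lower in 2 of 6 pairs.

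The members at that level without a block, of which myl1 and ryr1 were named after their values were seen, were actc1, the main sarcomeric actin of the frog tailbud, at -0.24 ± 0.09 (log2 fold change and SE), the myosin light chain gene myl1 at -0.23 ± 0.09, the calcium channel subunit gene cacng1 at -0.30 ± 0.10, the calcium release channel gene ryr1 at -0.20 ± 0.10 and the membrane repair gene trim72 at -0.26 ± 0.10. actc1 had 172317, 179210.0 and 179495 normalized counts in wild-type and 126650.0, 154567 and 148650.0 in het pools at stage 34, without overlap. At stage 26, 151313, 155293 and 182886 stood against 134250.0, 129160.0 and 167804, with overlap. myod1, a transcription factor that starts the muscle programme, had a log2 fold change of -0.18 ± 0.29, with het above wild-type in 3 of 6 pairs, and reached 0.05 without cross 9. In KO pools 26 of the 30 genes were called lowered, against 2.97% of all genes, with a median of -1.08. Without cross 2 the het median was -0.11, and so it was without the stage 26 wild-type pool of cross 9.

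Brachyury also maintains the presomitic mesoderm. The share called of all genes was 0.0222% without a block and 0.0667% with pair as a block. Of 15 presomitic mesoderm genes past the filter 0 were called by edgeR without or with a block and 0 by DESeq2, and 8 had a log2 fold change below 0. Their median was -0.02, or 0.02 with cross as a block. At an unadjusted p under 0.05, 0 were lower or higher without a block and 1 was lower with pair as a block (hes7.2). msgn1, a regulator of that tissue, had 376, 302 and 268 normalized counts in wild-type and 336, 222 and 345 in het pools at stage 26, with overlap. At stage 34 it had 161, 111 and 133 and 86, 78.3 and 98.7, with every het pool below every wild-type pool, and its log2 fold change over both stages was -0.34 ± 0.24 (SE, adjusted p 1). hes7.2, a member of the segmentation clock family, had -0.38 ± 0.21, mespb, which marks somite boundaries, had -0.57 ± 0.39, and the T-box gene tbx6 had -0.05 ± 0.29 and reached 0.38 without cross 9. mespa and mesp2, relatives of mespb that were chosen after their values were seen, had -0.41 ± 0.30 and -0.46 ± 0.38, with mespa lower in 6 of 6 pairs. The highest members, dll1 and pcdh8, also chosen after their values were seen, had 0.10 ± 0.08 and 0.08 ± 0.10, and -0.10 and 0.55 in KO. Against the same wild-type pools, the KO differed by -2.91 for hes7.2, -4.10 for mespb, -3.87 for mespa and -3.92 for mesp2. In KO pools, msgn1 and tbx6 were at 0 to 12.2 and 9.37 to 92.7 normalized counts.

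Of 15 notochord and floor plate genes, 0 were called by edgeR without or with a block and 0 by DESeq2, with a median of -0.02 (or 0.008 with pair as a block). The share called of all genes was 0.0222% without a block and 0.0667% with pair as a block. cav1, whose product forms the caveolae that are dense in notochord cells, was lower in 6 of 6 pairs. It ranged from 3371 to 6436 normalized counts in wild-type and from 3282 to 6173 in het pools, and its log2 fold change of -0.21 ± 0.13 (SE) did not pass (adjusted p 1, or 0.98 with pair as a block). not, a homeobox gene of the early notochord, had 0.25 ± 0.17. Of the 21 tailbud signalling genes, such as Wnt and FGF ligands of the growing tail, 0 were called in the same fits, with a median of 0.02.

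Outside the axial mesoderm, 0 genes were called by edgeR without or with a block or by DESeq2 in the lists for blood and endothelium (23 genes past the filter), heart (14), pronephros (15), neural tube (21), epidermis (11), endoderm and liver (14), myeloid cells (13), innate immunity and p53 (22) and nonsense-mediated decay (15). Of all genes, 0.0222% were called without a block and 0.0667% with pair as a block, so 0 calls in lists this short say little. The medians of these lists ran from -0.02 to 0.15. The highest was that of the myeloid list, whose pair medians ran from -0.21 to 0.40 and so lay on both sides of 0. With pair as a block, 4 of its 13 genes were higher and 0 lower at an unadjusted p under 0.05, against 2.75% and 2.63% of all genes. In that fit the neural tube, epidermis, and endoderm and liver lists each had 2 higher and 0 lower. Heart had 1 higher and pronephros 1 lower. With counts also centred per large scaffold, the myeloid and neural tube lists each had 1 higher, against 1.40% of all genes. The epidermis list and the endoderm and liver list then had 0 higher, while heart and pronephros kept their counts. In the neural tube list 18 of 21 genes had a log2 fold change above 0 and the median was 0.09. The share of the list below 0 was 14.3%, against 51.4% of all genes. Its pair medians ran from -0.03 to 0.17, and its median was 0.06 with counts centred per large scaffold (described further on). Among the T-box genes, tbx5, which acts in heart and limb, had the smallest p besides t, with a log2 fold change of 0.29 ± 0.14 (SE, unadjusted p 0.049, adjusted p 1 by edgeR). In the plot of list medians by pair, skeletal muscle was the only tissue list on the same side of 0 in all 6 pairs.

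The members of these lists with the smallest p show the size of what was seen. neurog2, a proneural transcription factor gene, had 1009, 953 and 1036 normalized counts in wild-type and 1083, 1048 and 1279 in het pools at stage 26, without overlap, and 606, 909 and 704 and 898, 839.5 and 866 at stage 34, with overlap (log2 fold change 0.21 ± 0.11, SE, adjusted p 1 by edgeR). ccno, a regulator of multiciliated cells of the epidermis, had 0.29 ± 0.18. ptf1a, which acts in pancreas and neural tube, had 0.25 ± 0.16, and every het pool lay above every wild-type pool at stage 34. In the blood list, hba1 had 0.41 ± 0.24 and the anion exchanger gene slc4a1 of red cells had 0.22 ± 0.18. slc12a3, which codes for the salt transporter of the distal kidney tubule, had -0.52 ± 0.34, and ncf1, a subunit gene of the phagocyte oxidase, had 0.37 ± 0.19. il1b, which codes for an inflammatory cytokine, and the p53 target cdkn1a had -0.31 ± 0.33 and 0.13 ± 0.15. The T-box gene list had a median of -0.03 over 15 genes (or 0.02 with cross as a block), with 0 called, and the nucleotidase list a median of 0.05 over 9, of which nt5dc1 was called. Without a block, 0.0222% of all genes were called.

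**Figure D3:**
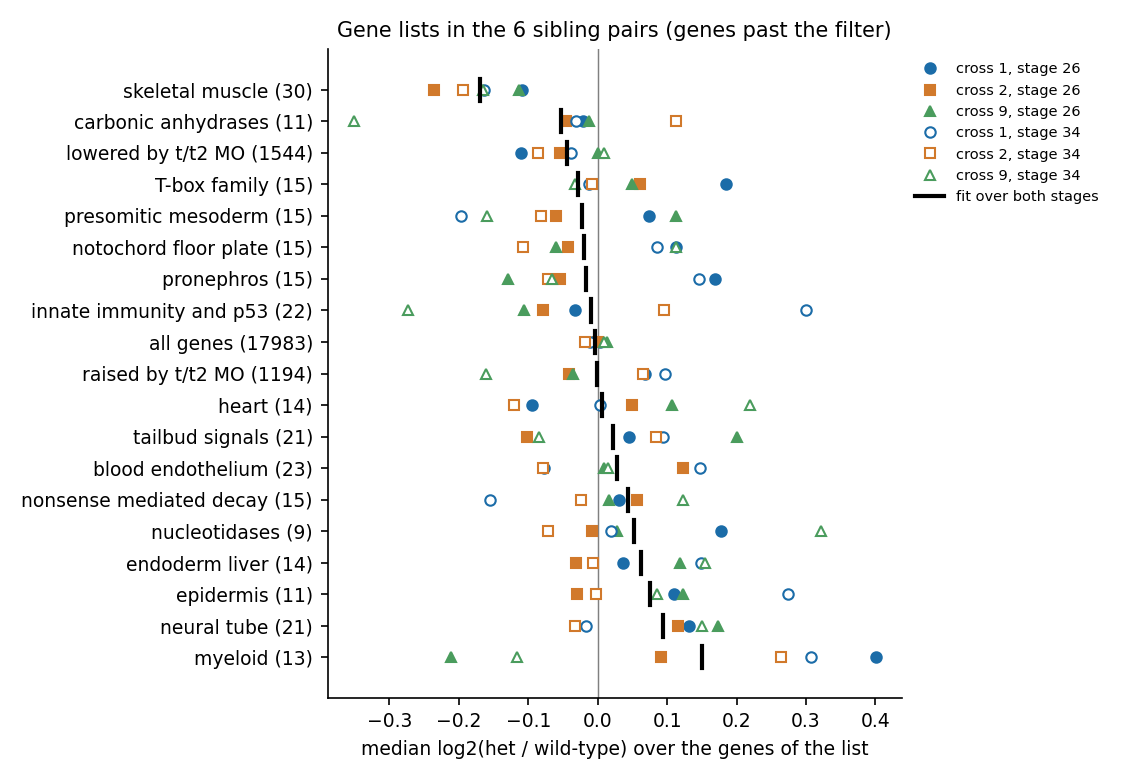
Median log2 ratio of het to wild-type over the genes of each list in the 6 sibling pairs (filled symbols stage 26, open symbols stage 34) and in the fit over both stages (black bars), with the number of genes past the filter. The 6 skeletal muscle medians lie between -0.24 and -0.11, and the other tissue lists reach both sides of 0.

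A wider set of genes came from the KD experiment, where antisense morpholino oligonucleotides (MOs) against t and t2 were injected into embryos. The paper attributes many changes seen only with MOs to side effects, namely an immune response and off-target mis-splicing. That experiment shares no library with the het and wild-type pools. Between t/t2 MO and uninjected embryos, 2738 genes were called in it (15.2%). Of the 1544 genes lowered and 1194 raised by MOs, 392 and 25 were called in the same direction in KO, and 2 and 12 in the opposite direction. Over all 17983 genes, 534 were called lowered and 84 raised in KO. Of the 1544 genes that the MOs lowered, 1 was called lowered in het (ca13), against 0.00556% of all genes. With pair as a block 4 were called lowered (ca13, dpt, epyc and krt18l) and 1 raised (t), against 0.0222% and 0.0445% of all genes. At an unadjusted p under 0.05, 49 were lower (3.17%) and 5 higher (0.324%), against 0.89% and 0.795% of all genes, and 62.3% had a log2 fold change below 0, against 51.4% of all. With pair as a block 144 were lower and 39 higher (9.33% and 2.53%, against 2.63% and 2.75% of all genes). Their median was -0.044. In pairs it ran from -0.11 to 0.01. Of the 1194 genes that the MOs raised, 12 were lower and 14 higher at that level without a block (1.005% and 1.17%, against 0.89% and 0.795% of all genes). Of these 1194, 0 were called in het by edgeR without or with a block, against 0.0222% of all genes without a block and 0.0667% with pair as a block.

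Position in the genome was examined because siblings sorted by genotype at t and t2 can also differ in whichever parental alleles lie near these genes. Of 211 genes within 10 Mb of t on scaffold 5 other than t and t2, 0 were called by edgeR without or with a block. The share called of all genes was 0.0222% without a block and 0.0667% with pair as a block. Of the 211, 8 had an unadjusted p under 0.05 without a block (3.79%, against 1.68% of all genes). With pair as a block 17 did (8.06%, against 5.38%). On scaffold 2, which carries neither t nor t2, the shares were higher, at 4.12% without a block and 14.3% with pair as a block. Between 10 and 20 Mb from t, nt5dc1 was called, and 9 of 218 genes had such a p (4.13%). Beyond 20 Mb the share was 6 of 821 (0.731%). The genes with a p under 0.05 near t included arg1, an enzyme of the urea cycle 10.1 Mb away, with a log2 fold change of 0.40 ± 0.14 (SE, adjusted p 1, or 0.044 with pair as a block, under 1.5-fold). dynlt1, a dynein light chain gene 6.87 Mb away, had 0.31 ± 0.09 (adjusted p 1), with het pools above wild-type at both stages. Effects of the t and t2 deletions and of alleles linked to them cannot be told apart in these crosses.

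**Figure D4:**
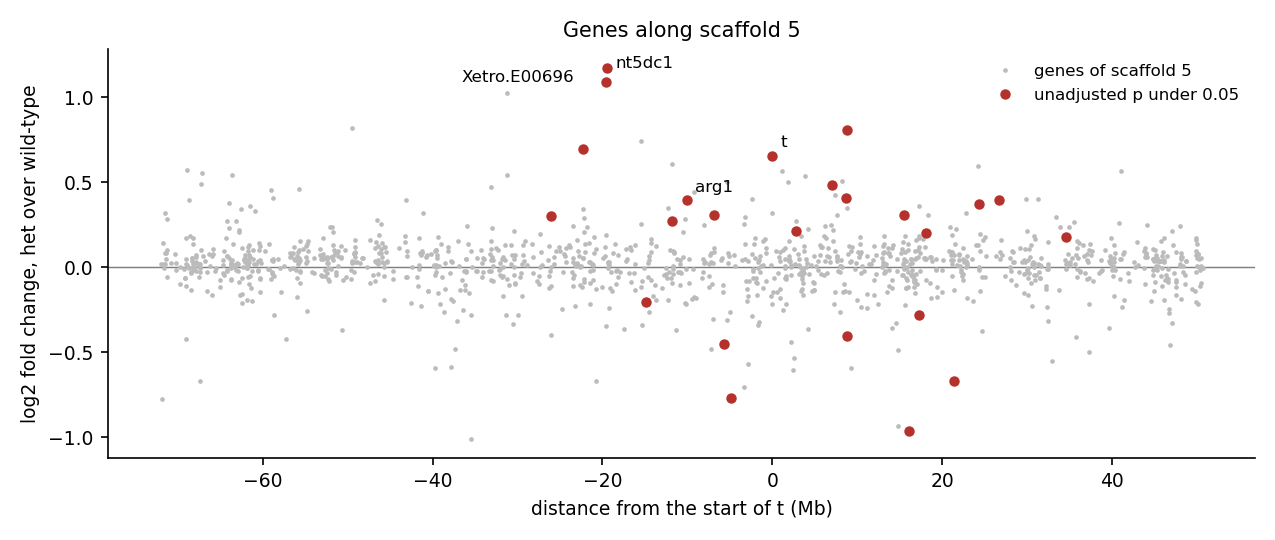
Log2 fold change of het over wild-type for genes past the filter on scaffold 5 against their distance in Mb from the start of t, with red points for genes whose unadjusted p was under 0.05. Red points lie on both sides of t, with nt5dc1 and Xetro.E00696 the highest of them at 1.17 and 1.09.

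Whole scaffolds also differed between siblings. Over the 14729 genes with a mean normalized count of 50 or more, the median log2 ratio of het to wild-type was taken for each of the 10 large scaffolds in each pair. Of these 60 medians, 26 exceeded 0.1 in size, and for all 26 the genes in the first and in the last part of the scaffold, split at the middle gene, had medians on the same side of 0. In cross 1 at stage 34 the medians ran from -0.26 on scaffold 8 to 0.30 on scaffold 4, where 89.0% of 1631 genes were higher in het. In cross 9 at stage 34 they ran from -0.19 on scaffold 8 to 0.31 on scaffold 5, where 91.3% of 1033 genes were higher. In cross 9 at stage 26 only 10.9% of the genes of scaffold 4 were higher, with a median of -0.22.

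In cross 2 the scaffolds differed little. Its medians ran from -0.04 to 0.01 at stage 34 and from -0.03 to 0.15 at stage 26, where scaffold 2 alone exceeded 0.1. Direction could differ between crosses. On scaffold 4, cross 1 was at 0.12 and 0.30 at stages 26 and 34 and cross 9 at -0.22 and -0.02. Scaffold 2 had a median above 0 in 5 of 6 pairs, and scaffolds 3 and 9 in 1 of 6. In the unblocked fit, 71 of the 1821 genes of scaffold 2 were higher and 4 lower at an unadjusted p under 0.05, while scaffold 8 had 0 higher and 29 lower. The results for single genes were therefore repeated after centring each library on its own medians of the 10 large scaffolds, an alternative chosen after the data were seen. Genes on other scaffolds were left uncentred. Among them were Xetro.K03831, Xetro.K02018, Xetro.K02014, Xetro.K04745, Xetro.K05172 and krt18l.

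**Figure D5:**
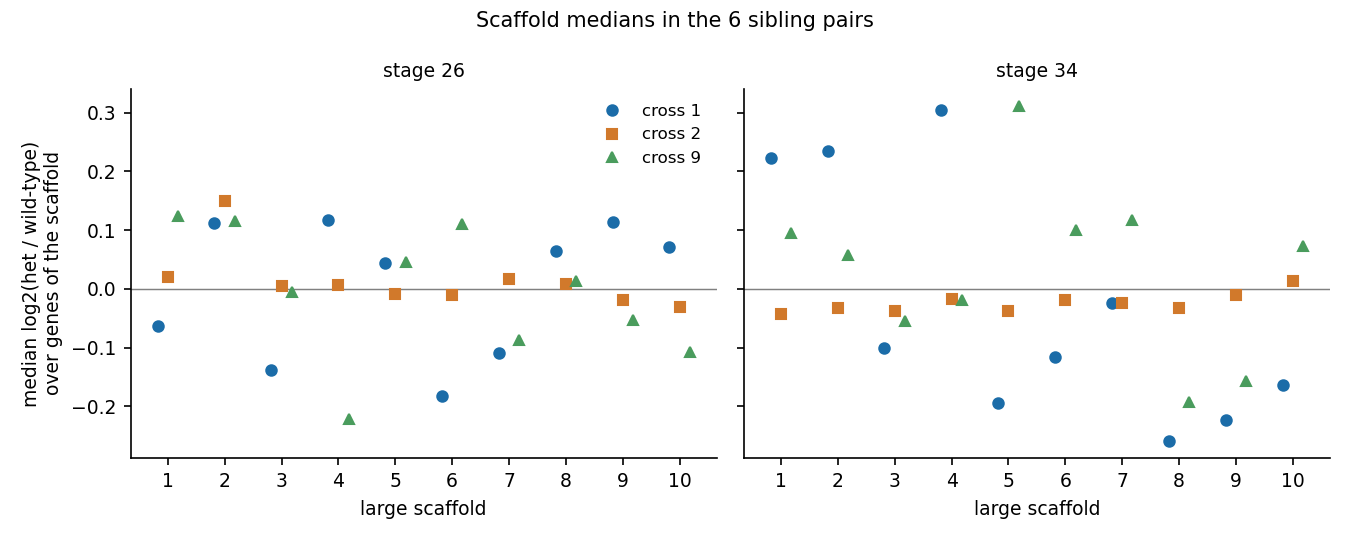
Median log2 ratio of het to wild-type over the genes of each of the 10 large scaffolds, by cross, at stage 26 (left) and stage 34 (right). Medians of cross 1 and cross 9 spread from -0.26 to 0.31, while those of cross 2 stay between -0.04 and 0.15.

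With counts centred per scaffold, Xetro.K03831, nt5dc1 and Xetro.K02018 were called (0.0167%), and ca13 had an adjusted p of 0.11 by edgeR with a log2 fold change of -1.49. Of these called genes only nt5dc1 lay on a centred scaffold, so the other calls do not bear on shifts of their own scaffolds. Together with pair as a block, 9 genes were called (0.05%), and ca13 had an adjusted p of 0.049, dpt 0.014, t 0.015 and krt18l 0.012. The skeletal muscle median was -0.14, with 28 of 30 genes below 0, 2 of them at an unadjusted p under 0.05 (against 0.823% of all genes). On scaffold 2, 4 genes were then higher and 12 lower at that level. Of the 211 genes within 10 Mb of t, 15 had such a p (7.11%), against 1.28% of all genes and 9 of 821 beyond 20 Mb (1.10%).

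Siblings of a cross were nonetheless closer to each other than to pools of the same genotype from another cross. Of the 14729 genes, 1.65% to 7.55% differed by at least 1.5-fold between the het and wild-type pools of a pair. Between wild-type pools of different crosses at a stage the share was 7.80% to 18.7%, and between het pools 7.84% to 18.4%. The smallest share was in cross 2 at stage 34 and the largest of the sibling pairs in cross 1 at stage 26.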

How the data were processed

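RNA from pools of sibling embryos was sequenced as poly(A) libraries of paired reads without strand. Per the labels and the study's methods, the authors aligned read pairs with Bowtie2 2.1.0 to revised gene models (v7.2) and EST assemblies together with ribosomal and mitochondrial RNA, and deposited counts of the pairs that aligned to a single gene. TopHat2 2.0.10 and CASAVA 1.8.2 are also named in their processing notes. The deposited table holds 25774 genes and 3 entries that name no gene (ribosomal RNA 0.0705% to 0.142%, mitochondrial RNA 0.00592% to 0.0582% and unaligned pairs 27.3% to 30.7% of the pairs in these 12 libraries), and these entries entered neither library sizes nor tests.

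The 18 libraries of the KO experiment were fitted with edgeR 4.0.16 (R 4.3.3), using TMM scaling, the quasi-likelihood test and stage plus genotype as terms. P-values were adjusted (Benjamini-Hochberg) over 24952 genes with a count. Calls needed an adjusted p of 0.1 or less, a fold change of at least 1.5 and a mean normalized count above 7 over uninjected, control MO, wild-type and het libraries, which 17987 genes had, 17983 of them counted in the KO experiment. Single stages and their difference came from a model with a term for each stage and genotype. Ratios within a pair used a pseudocount of 0.5. Samples were grouped by their labels, and 3 pools of separate crosses made up each group.

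Crosses pair the pools, since pools of a cross and stage share parents. Deviations from group means correlated at 0.52 on average in the 6 pairs of a cross and stage (0.36 to 0.65), at 0.27 for the same cross at the other stage and at -0.18 between crosses. Such deviations cancel out within a group by construction, so positive values within crosses force a negative mean between crosses. The unblocked and pair-block fits were tested on simulated data first. DESeq2 was tested only on simulated data with changed genes, and centring only on those with scaffold shifts. The fit with cross as a block and the remaining alternatives were not simulated. With pair as a block, single-stage and interaction fits made false calls in simulated data without change. Those data were drawn without cross effects or scaffold shifts, unlike the real pairs, so how these fits behave here is not known. The report describes only fits with this block over both stages and gives the others as counts among the alternatives.

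Genes described were t and t2, those called over both stages, at a stage or with cross as a block, the 10 raised and 10 lowered genes with the smallest p among those with a symbol, a mean normalized count of 50 or more and the same sign in 6 of 6 pairs, the 3 members of each list with the smallest p, and markers that the study used. 1 gene of this rule is not reported here. Others are said to have been chosen after their values were seen. Members and gene lists were chosen with earlier results of these data known. Genes lowered or raised by MOs were taken from the KD libraries by the same thresholds. Positions come from annotation v7.1. The alternatives were DESeq2 1.42.0, other scaling, filters and thresholds, cross or pair as a block, the 12 libraries alone, each cross or library left out and counts centred per large scaffold. Figures were drawn with matplotlib 3.10.9 (Python 3.11.15).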

Additional observations from a re-analysis of the deposited data

Results flagged for a closer look

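Of 19 sets of 6 pair ratios examined, 2 held a pair far from the others, where chance alone gives about 1 in 20. For Xetro.K03831, the pair of cross 2 at stage 26 had a log2 ratio of het to wild-type of 1.54, below the other 5, and its gap to the nearest took 0.648 of the range. For krt18l, the pair of cross 1 at stage 26 had a log2 ratio of -1.57, below the other 5, with a gap of 0.687 of the range.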

How the results depend on the processing

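Over both stages, where 4 genes were called, DESeq2 called 10, a filter on the mean count before the fit 1, a false discovery rate of 1% 1, cross as a block 8, pair as a block 12 and, with counts centred per scaffold and pair as a block, 9, while 1 to 5 were called when a cross or library was left out. At stage 26, with 3 calls, the 12 libraries alone gave 1, the earlier filter 0, the 1% rate 0, pair as a block 18 (single-stage fits with this block made false calls on simulated data without change) and centring with that block 9, and leave-outs gave 0 to 4. At stage 34, with 3 calls, the same settings gave 1, 1, 1, 8 and 6, cross as a block 5, centring alone 1 and leave-outs 0 to 4. For the difference between stages, with 0 calls, pair as a block gave 4, in a fit that also made false calls on those simulated data, and leave-outs 0. In the gene lists, with 2 calls, the earlier filter gave 0, centring 1, the 1% rate 0 and leave-outs 0 to 2. Among genes that the MOs changed, with 1 call, DESeq2 gave 3, the 12 libraries 2, the earlier filter 0, cross as a block 3, pair as a block 5, centring 0, centring with the block 4, the 1% rate 0 and leave-outs 0 to 1. Both forms of centring were chosen after seeing the data. Leave-outs bounded 12412 to 13580 genes within 1.5-fold. None of the 12 genes called over both stages with pair as a block changed sign in any of these settings. Among genes of the lists and markers that were not called, 15 changed sign in some setting, as did 12 list medians. Leave-outs gave log2 fold changes for atp1b1 -0.0067 to 0.15, c3ar1 -0.77 to 0.054, ca12 -0.23 to 0.00027, cdkn1a -0.084 to 0.22, foxa4 -0.035 to 0.33, gata2 -0.037 to 0.33 and hoxd8 -0.12 to 0.065. They gave them for myh6 -0.23 to 0.28, myod1 -0.42 to 0.048, nt5dc2 -0.21 to 0.026, tal1 -0.061 to 0.080, tbx6 -0.29 to 0.38, tnfaip2 -0.091 to 0.70, tnnt2 -0.053 to 0.59 and upf2 -0.18 to 0.016. With a block, tbx6 was at 0.034 (cross) and myh6 at -0.0070 (pair). With centring, atp1b1 was at -0.023 and hoxd8 at 0.0023, and with the pair block also at -0.030 and 0.011, with myh6 at -0.062. The causes were not tested. The few reads of Xetro.K03831 in wild-type limit its fold change, and 3 pools per group and stage limit the rest.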
